A study of Mus musculus with 10 samples.

Results

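The clustered protocadherin genes were taken as the protein-coding genes of mouse chromosome 18 whose symbols start with Pcdha, Pcdhb or Pcdhg in the annotation of the genome build mm10. There were 57 of them among 21938 protein-coding genes, namely 14 alpha, 22 beta and 21 gamma genes, all on the plus strand between chr18:36930184 and chr18:37841873. They were described by the accessible sites found near them in immortalized mouse embryo fibroblasts (iMEF), and the rule for their choice uses positions and symbols only.

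Clustered protocadherins are cadherin-like adhesion proteins of the cell surface that are best known for giving neurons individual identities. Each alpha or gamma gene contributes a large variable exon with a promoter of its own, which is spliced to constant exons shared by the whole cluster, whereas each beta gene encodes its protein in a single exon. Single neurons use a few of the alternate promoters, chosen at random and with the help of the insulator protein CTCF, cohesin and downstream enhancers, while the C-type genes at the end of the alpha and gamma clusters are used more uniformly.

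ATAC-seq, in which the transposase Tn5 cuts open chromatin, was performed on cells that live on a degradable ASH2L protein. In these iMEF cells, exon 4 of the floxed Ash2l alleles had been deleted with Cre-ER, and a lentiviral construct provided an FKBP-HA2-ASH2L fusion of human ASH2L, a protein needed by histone methyltransferases of the KMT2 family. The study describes the cells used for ATAC-seq as 1 clone, NG3, and the compound dTAG-13, which recruits a ubiquitin ligase to the FKBP tag, was used to degrade the fusion protein. There were 5 groups of 2 replicates. In 4 of them dTAG-13 was added 30 min, 4 h, 8 h or 24 h before collection. The other group, titled WT, was taken as having no dTAG-13, and the methods name ethanol as the control. All 10 libraries, those titled WT included, share the Ash2l deletion and the transgene.

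The values used here were the positions of 153924 accessible sites, pooled over all 10 libraries. The list gives no signal per library. Differences between treated and control cells and the spread between replicates were therefore not analysed here, and the depth is unknown. A site in few cells and a weakly open site in all cells cannot be told apart, which matters for genes that are chosen cell by cell. A site lay within 1 kb of a start site for 11 of 11 fibroblast marker genes, but also for 8 of 8 neuron, 3 of 4 epithelium and 1 of 4 leukocyte marker genes, so that a site at the start did not separate fibroblast genes from those of neurons.

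To address which protocadherin promoters were accessible, sites overlapping the window of 1 kb either side of any annotated start site were counted. Such a site was found for 27 of 57 members (47.4%). The share was 70.8% for all protein-coding genes and 80.1% for the 513 protein-coding genes of chromosome 18. The alpha genes had a site in 6 of 14 cases (42.9%), the beta genes in 12 of 22 (54.5%) and the gamma genes in 9 of 21 (42.9%). These shares describe 1 pooled list, and no test between clusters was made.

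The members with a site were not spread evenly along the locus. Among the beta genes, the split followed gene order: Pcdhb1 to Pcdhb10 had a site in 0 of 10 cases and Pcdhb11 to Pcdhb22 in 12 of 12. The cut between these groups was placed where the sites begin, so their shares follow from that choice. Of the 12 alternate alpha genes, Pcdha5, Pcdha9, Pcdha11 and Pcdha12 had a site (33.3%). In the gamma cluster, the sites were at the first 4 genes (Pcdhga1, Pcdhga2, Pcdhga3 and Pcdhgb1) and then singly at Pcdhga6, Pcdhga10 and Pcdhga12. By subfamily, 6 of 12 gamma A genes (50%) and 1 of 6 gamma B genes (16.7%) had a site. The C-type genes had a site in 4 of 5 cases (80%), the exception being Pcdhgc4, and the 52 alternate genes in 23 (44.2%).

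**Figure D1:**
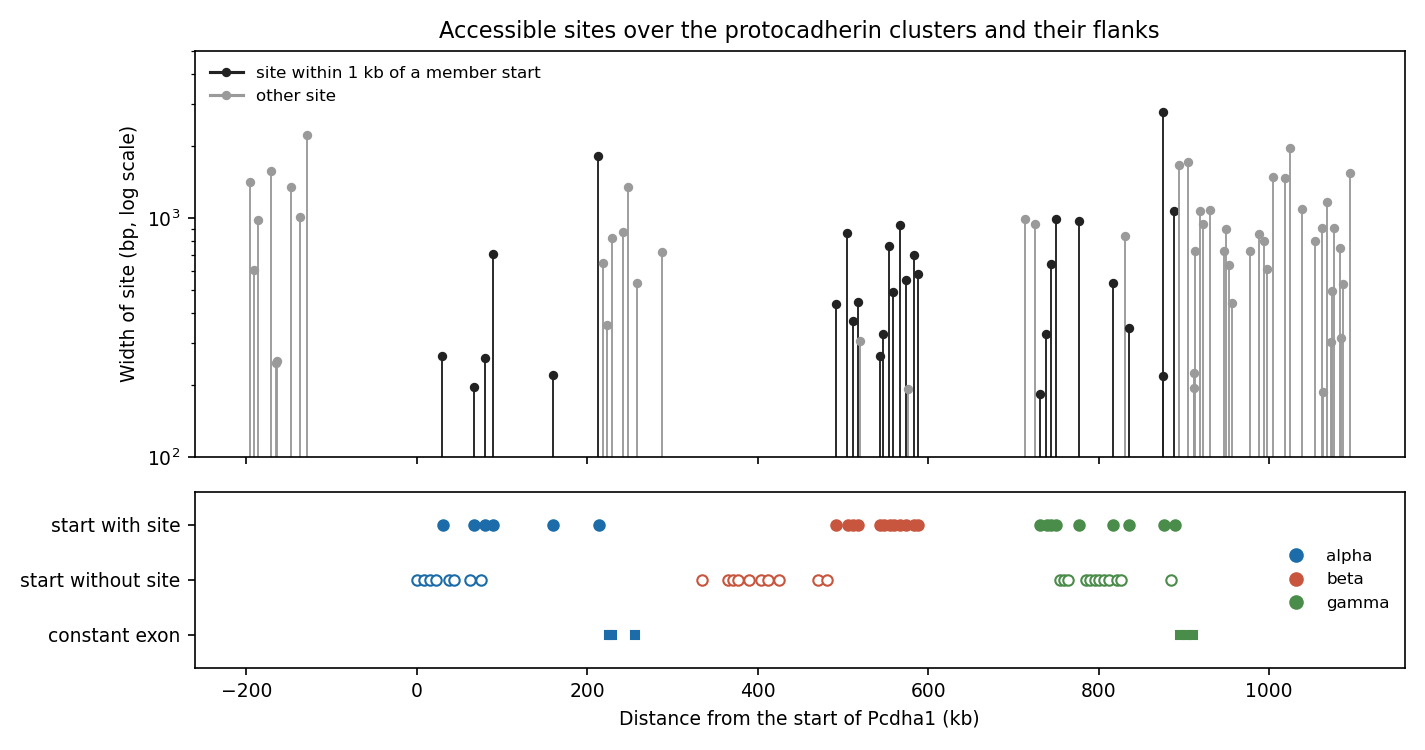
Accessible sites from 200 kb upstream to 200 kb downstream of the members, plotted against the distance from the start of Pcdha1 in kb. The upper panel gives the width of each of the 80 sites in bp on a log scale (black, within 1 kb of a member start; grey, other sites), and the lower panel gives the 57 members by cluster, as filled circles with a site and open circles without, and the constant exons as squares; no site stands over the start sites of Pcdhb1 to Pcdhb10.

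CpG content was compared because it separated accessible from other starts across the genome. With a GC content of at least 50% and an observed to expected CpG ratio of at least 0.6 in 500 bp either side of the outermost start, 97.1% of 9738 CpG-rich protein-coding genes had a site, against 49.8% of the 12200 others. Only 3 members were CpG-rich (Pcdhac2, Pcdhgc3 and Pcdhgc4, all C-type), and 2 of them had a site. Of the 54 remaining members, 25 had a site (46.3%), close to the 49.8% of other genes that are not CpG-rich. The class was set at the outermost start, but a site could lie at any annotated start. Genes with several starts were therefore not matched for CpG content at the start with the site. Genes related by family or by clustering were set beside these values without a test. The 12 unclustered protocadherin genes had a site in 12 of 12 cases, including the 4 that were not CpG-rich. For Pcdh12 the nearest site was 972 bp from a start, close to the limit of 1 kb. The Hox genes, another clustered family, had a site in 37 of 39 cases and in 14 of the 15 that were not CpG-rich.

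**Figure D2:**
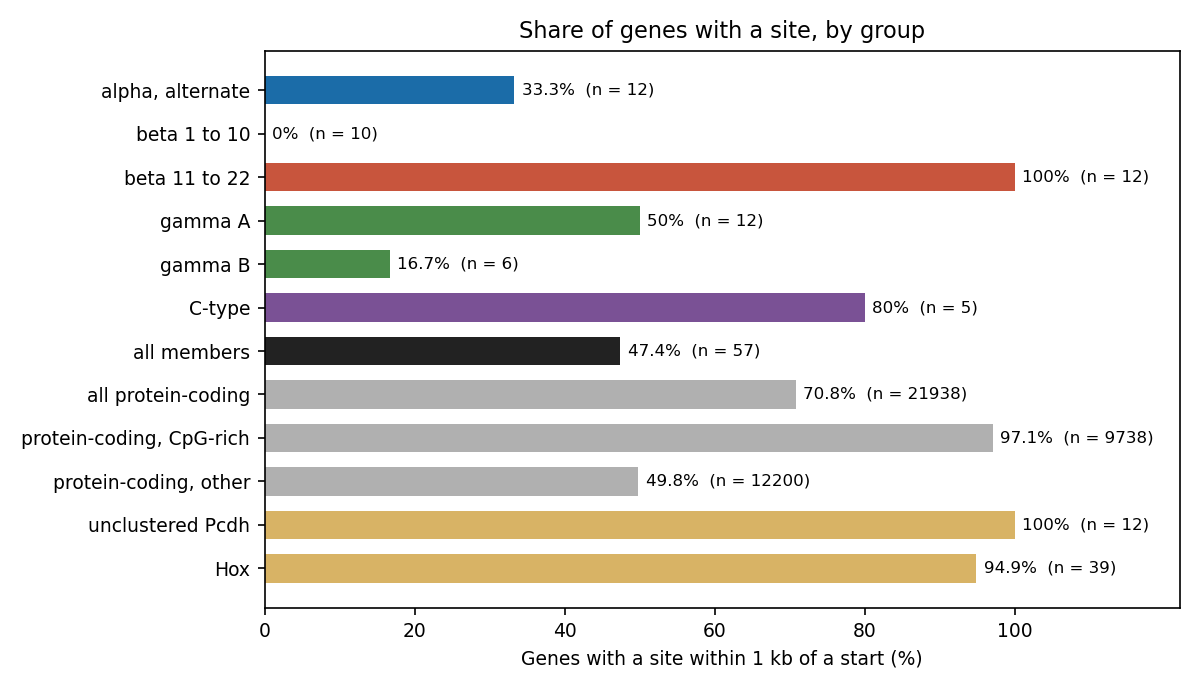
Percentage of genes with a site within 1 kb of a start site, for subgroups of the members (colours), all members (black), protein-coding genes (grey), and unclustered protocadherin and Hox genes (ochre), with the number of genes beside each bar. Pcdhb1 to Pcdhb10 are at 0% and Pcdhb11 to Pcdhb22 at 100%, by a cut placed where the sites begin. All members together are at 47.4%, near the 49.8% of protein-coding genes that are not CpG-rich.

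The members with a site were separated from the others by a wide margin around the limit of 1 kb. For 25 of the 27 members with a site, the site covered an annotated start base, and for the other two, Pcdhb11 and Pcdhac1, it began 3 bp downstream of the start and ended 20 bp upstream of it, respectively. Among all protein-coding genes with a site, a start base was covered in 91.8%. The 30 members without a site were 3455 to 101040 bp away from the nearest one. Closest were Pcdhgc4 at 3455 bp, Pcdhgb7 at 4169 bp and Pcdhga4 at 4282 bp, and in each case the nearest site belonged to a neighbouring gamma gene. Farthest were Pcdhb5 at 101040 bp, Pcdhb4 at 88786 bp and Pcdhb6 at 87475 bp, all in the beta genes without a site.

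The sites at the members were narrow. Their median width was 534 bp (184 to 2765 bp), and 24 of 27 were narrower than 1000 bp. For all protein-coding genes with a site, the median was 1356 bp and 23.9% were narrower than 1000 bp. Restricting the comparison to genes that are not CpG-rich left medians of 489 bp for the members and 1096 bp for all genes, with 96% and 42.9% narrower than 1000 bp. As above, the class was set at the outermost start, while the width was taken at any annotated start, so CpG content was not fully matched. The Hox genes that are not CpG-rich had a median of 868.5 bp, with 71.4% narrower than 1000 bp. In 16 of 27 members the site was also narrower than the median site of the whole list, 619 bp. The signal behind these widths is unknown here, and the widths were not compared by a test.

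Within the alpha cluster, the sites of the alternate genes were short and centred near the start. At Pcdha5 (chr18:36960224-36960488) the site reached from -216 to 48 bp relative to the outermost annotated start. Pcdha9 had a site of 196 bp (chr18:36997839-36998034; -41 to 154 bp). At Pcdha11 the site of 260 bp (chr18:37010607-37010866) covered -105 to 154 bp. The widest alternate alpha site was that of Pcdha12, with 708 bp (chr18:37020013-37020720; -136 to 571 bp), which also covered the start of the antisense RNA Gm10545. The C-type gene Pcdhac1 had a site of 220 bp just upstream of its start (chr18:37089774-37089993), and no site on its variable exon. The other C-type gene, Pcdhac2, had a site of 1820 bp (chr18:37143118-37144937) that continued 1434 bp into the gene.

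In the beta cluster, the 12 accessible genes lay side by side, and their sites were 265 to 930 bp wide with a median of 520 bp. The first was Pcdhb11 (chr18:37421421-37421856, 436 bp). Pcdhb12 had a wider site of 868 bp (chr18:37435328-37436195), whereas Pcdhb13 (chr18:37442203-37442571) and Pcdhb14 (chr18:37447470-37447914) had sites of 369 and 445 bp. The narrowest beta site was that of Pcdhb15 with 265 bp (chr18:37473407-37473671), followed by Pcdhb16 with 326 bp (chr18:37477652-37477977). All of these reached over or next to the annotated start.

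Further along, Pcdhb17 had a site of 766 bp (chr18:37484591-37485356) and Pcdhb18 one of 489 bp (chr18:37489151-37489639). Pcdhb19 had the widest beta site (chr18:37496673-37497602, 930 bp), which covered -318 to 611 bp. Pcdhb20 and Pcdhb21 had sites of 551 bp (chr18:37504128-37504678) and 698 bp (chr18:37513405-37514102). At Pcdhb22, the last beta gene, the site of 581 bp (chr18:37518203-37518783) began 332 bp downstream of the outermost start and covered another annotated start. Only Pcdhb14 and Pcdhb20 carried a further site within the exon that lay near no member start. That of Pcdhb14 (chr18:37449806-37450109, 304 bp) began 2150 bp and that of Pcdhb20 (chr18:37506419-37506610, 192 bp) 2155 bp after the start.

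In the gamma cluster, Pcdhga1 had the narrowest site of all members, 184 bp (chr18:37661633-37661816), and Pcdhga2 one of 326 bp (chr18:37668797-37669122). The next genes had wider sites, 643 bp at Pcdhga3 (chr18:37673907-37674549) and 993 bp at Pcdhgb1 (chr18:37679936-37680928). Pcdhga6 stood alone between genes without a site, with 966 bp (chr18:37706760-37707725). The same was true of Pcdhga10 with 534 bp (chr18:37746898-37747431). At Pcdhga12 the site of 345 bp (chr18:37765762-37766106) began 182 bp after the outermost start and covered another annotated start. Between them, a site of 843 bp (chr18:37761250-37762092) covered the start of Pcdhgb8, which is annotated as a polymorphic pseudogene and was not counted as a member.

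The gamma C-type genes included the widest site of the locus. Pcdhgc3 had a site of 2765 bp (chr18:37805895-37808659), which reached from -469 to 2295 bp and also covered the start of the antisense RNA BC037039, and a second site of 219 bp upstream of it (chr18:37805220-37805438). Pcdhgc5 had a site of 1068 bp (chr18:37818911-37819978; -602 to 465 bp). Pcdhgc4, which lies between them and was CpG-rich, had no site. The median width was 1444 bp for the 4 C-type genes with a site and 489 bp for the 23 alternate genes.

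**Figure D3:**
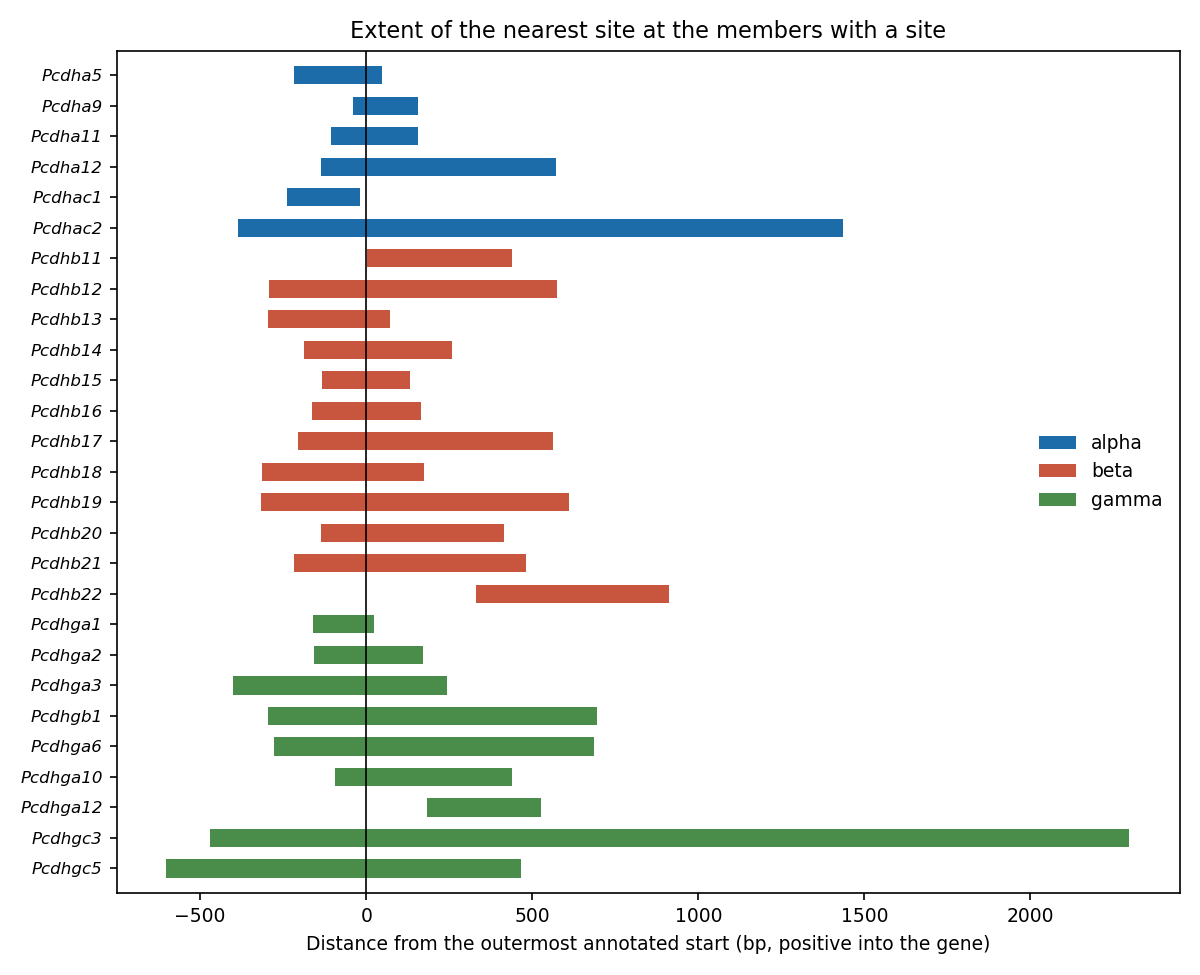
Extent of the nearest site at the 27 members with a site, in bp from the outermost annotated start (vertical line), with positive values into the gene and colours for the clusters. Most bars cross the line and the median right end is at 438 bp, whereas those of Pcdhac2 and Pcdhgc3 reach 1434 and 2295 bp into the gene.

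Variable exons were counted separately, since a site can lie on the exon without lying at its start. For each gene, the longest first exon of its coding transcripts was used. The first exon overlapped a site in 26 of 57 members, and in 58.8% of the 21853 protein-coding genes for which this could be asked. The exons of the members were 2346 to 8695 bp long, and these shares were not matched for exon length. With the middle of the site required inside the exon, 18 members were counted. These 26 were all members with a site at the start except Pcdhac1. Thus, no variable exon of the 30 members without a start site carried a site anywhere along its length.

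Over the whole span of 911690 bp there were 43 sites, or 4.72 per 100 kb, covering 3.34% of the sequence. The value was 6.01 for chromosome 18 and 6.26 for the autosomes. Of 2588 windows of the same length along the autosomes, 34.5% had fewer sites, and the median window had 57 (quartiles 32 and 80). The number of sites over the members was thus below the median but above the lower quartile of such windows. With 200 kb either side, 80 sites were found, 9 in the upstream and 28 in the downstream flank. The alpha cluster held 11 sites, beta 14 and gamma 14, and within beta they were all at one end. From the start of Pcdhb11 to the end of Pcdhb22 there were 14 sites in 103062 bp (13.6 per 100 kb), and from the start of Pcdhb1 to that of Pcdhb11 there were 0 in 156480 bp. Here, too, the cut was placed where the sites begin.

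The empty stretches were long. The longest gap between neighbouring sites ran over 202751 bp (chr18:37218670-37421420) from downstream of the alpha cluster up to the site of Pcdhb11, and held the start sites of Pcdhb1 to Pcdhb10 and, within its last bases, that of Pcdhb11, whose site begins 3 bp after the start. Of 150064 gaps on the autosomes, 681 (0.454%) were at least as long, 25 of them on chromosome 18. A gap of 156941 bp (chr18:36803283-36960223) before the site of Pcdha5 held the starts of Pcdha1 to Pcdha4 and had 951 equals or longer (0.634%). Another gap, of 124955 bp (chr18:37518784-37643738), separated the last beta site from the site of Taf7 and held no member start, with 1384 gaps (0.922%) as long or longer. These 3 gaps were picked as the longest of the span and its flanks, while the percentages refer to all single gaps. The percentages therefore do not measure how unusual the locus is.

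The remaining 15 sites of the span were not at member starts, and most of them lay around the constant exons. Enhancers of the locus are known from among the alpha constant exons and from the interval between these and the beta genes. Others are known from the interval after the last gamma constant exon, which is outside the span. Of the 15 sites, only 3 from alpha constant exon 1 to 3 and 2 downstream of them lay in these intervals. These enhancers are named HS7 and HS5-1 at the alpha end and HS16 to HS20 at the gamma end of the locus. This names where they lie and not which genes they act on. Their exact positions were not used here, so sites are given by interval only. Between the variable exon of Pcdhac2 and alpha constant exon 1 there were 2 sites (chr18:37149069-37149713 and chr18:37153643-37153997). From constant exon 1 to 3 there were 3 sites. A site of 824 bp covered constant exon 2 (chr18:37158695-37159518), a site of 871 bp (chr18:37171951-37172821) covered the start of the antisense RNA Gm38097, and a site of 1347 bp (chr18:37177994-37179340) that of the noncoding RNA Gm10544. Downstream, in the 77276 bp before Pcdhb1, sites of 534 bp (chr18:37188846-37189379) and 721 bp (chr18:37217949-37218669) were found.

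At the gamma constant exons 2 wide sites and 1 narrow site were found. A site of 1669 bp (chr18:37824190-37825858) covered constant exon 1, a site of 1719 bp (chr18:37835175-37836893) lay between constant exons 2 and 3, and a site of 224 bp (chr18:37841422-37841645) lay on constant exon 3. In the 11533 bp from the end of constant exon 3 to the next protein-coding start, that of a short Diaph1 transcript, there were 4 further sites, of 195 bp (chr18:37841874-37842068), 728 bp (chr18:37842563-37843290), 1068 bp (chr18:37849307-37850374) and 941 bp (chr18:37851996-37852936). This corresponded to 34.7 sites per 100 kb. The sites of 1068 and 941 bp lay inside the Diaph1 gene, and that of 941 bp was also within 1 kb of its start. Taking the introns of the alpha constant exons and both downstream intervals, 9 sites were found in all, those inside Diaph1 included.

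**Figure D4:**
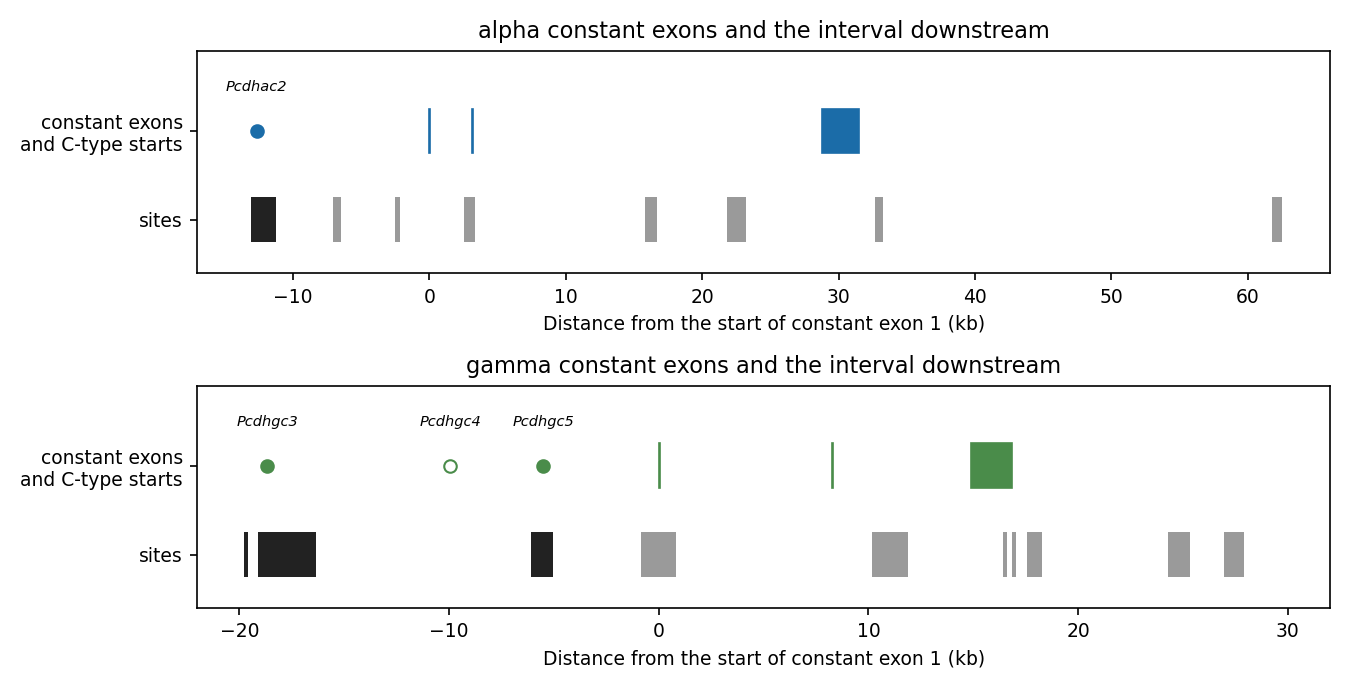
Sites around the constant exons of the alpha (top) and gamma (bottom) clusters, in kb from the start of constant exon 1. Coloured boxes are constant exons, circles are C-type starts with (filled) or without (open) a site, and boxes in the lower row are sites, drawn to scale in black where they lie within 1 kb of a member start and in grey elsewhere; 3 sites lie from alpha constant exon 1 to 3 and 4 follow gamma constant exon 3.

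CTCF binds protocadherin promoters and their enhancers, so the sequence under the sites was searched on both strands for a consensus of 12 positions. An exact match was in 2 of 43 sites of the span (4.65%) and in 4.49% of all sites on the chromosomes. One of the 2 was the site of Pcdha12, with a match on the plus strand, and the other the site within the exon of Pcdhb14, with a match on the minus strand. With 1 mismatch allowed, matches were in 7 of the 43 sites (16.3%) and in 19.1% of all sites, and an exact match in the middle 200 bp was in 1 site and in 2.84% of all sites. The windows around the starts held further matches outside the sites. In the window of 1 kb either side of the outermost start, 6 members had an exact match, against 1.72% of the windows of all protein-coding genes. These were Pcdha1, Pcdha4, Pcdha6, Pcdha7, Pcdha8 and Pcdha12, all on the plus strand and within the variable exon, at 560, 574, 581, 578, 552 and 537 bp after the start. Of these 6 genes only Pcdha12 had a site, and its match lay inside it. A match is a description of the sequence and not a bound site.

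Many protocadherin promoters carry a conserved element whose core is CGCT. These 4 letters, on the coding strand in the 300 bp before any annotated start, were found in 52 of 57 members (91.2%) and in 65.2% of all protein-coding genes. Genes with more starts had more chances of a match. Before the outermost start alone, the core was found in 51 members (89.5%) and in 47.2% of all protein-coding genes. The CTCF consensus searched above does not contain this core, so its counts say nothing about this element. Whether CTCF binds at the element was not tested. Being short, the core occurs often in any sequence. Before any annotated start, it was present in 23 of the 27 members with a site and in 29 of the 30 without. In 21 members at least 1 core lay inside a site. The 5 members lacking it were Pcdha10, Pcdhac2, Pcdhb17, Pcdhga12 and Pcdhgc5, of which Pcdhac2 and Pcdhgc5 are C-type genes.

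The members are similar in sequence, and reads from sequence that occurs in several copies have no unique place in the genome. The share of 50-base words in each window of 1 kb either side of the start that occur elsewhere in the genome was therefore determined. The median was 1.2% for all members, 0.0% (0.0 to 12.7%) for those with a site and 5.2% (0.0 to 17.9%) for those without. It was 5.5% with and 10.6% without a site in alpha, and 0.0% and 2.3% in gamma. For Pcdhb1 to Pcdhb10 it was 4.0% (0.0 to 13.1%) and for Pcdhb11 to Pcdhb22 0.0% (0.0 to 12.7%). The median was thus higher without a site in all 3 clusters, and the part of repeated sequence in the result was not tested. The ranges overlapped. Pcdhb1, Pcdhb2 and Pcdhb3 had 0.0% and no site, as had Pcdhga4, Pcdhgb2, Pcdhga7, Pcdhga11 and Pcdhgc4, while Pcdhb11 and Pcdhb12 had 12.2% and 12.7% and a site. Among the 48 members with at most 10% repeated words, 24 had a site.

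The CpG ratio differed between clusters, with medians of 0.68 in alpha, 0.38 in beta and 0.59 in gamma. It was lower in the members with a site (0.49) than in those without (0.65). In the beta genes the medians were 0.30 for Pcdhb11 to Pcdhb22 and 0.42 for Pcdhb1 to Pcdhb10, and the lowest single value, 0.16, was that of Pcdhb9, which had no site. No beta gene was CpG-rich by the limits above.

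**Figure D5:**
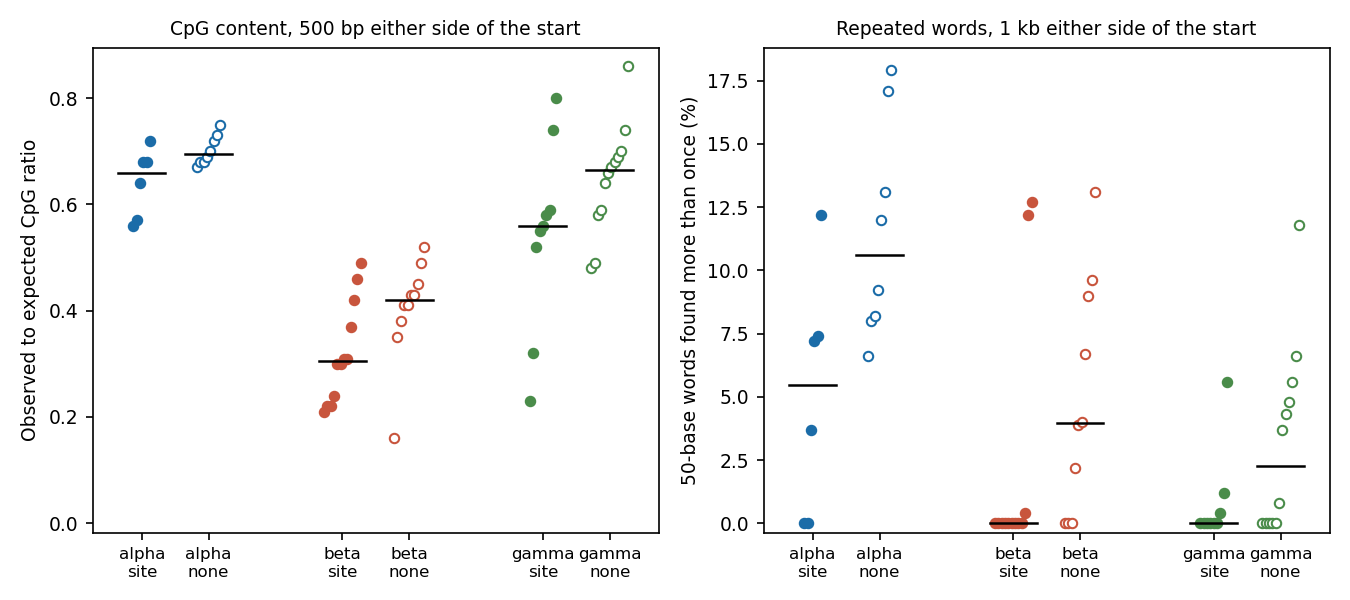
Observed to expected CpG ratio in 500 bp either side of the outermost start (left) and percentage of 50-base words in 1 kb either side of it that occur more than once in the genome (right), for each member with a site (filled) and without (open), by cluster. Lines are medians; members without a site have the higher median in all 3 clusters on both measures, with overlapping ranges.

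Genes that act on the clusters or with their proteins were accessible throughout. All 13 regulators had a site at a start, with a median width of 1627 bp, among them Ctcf (2203 bp), the cohesin subunit gene Rad21 (1995 bp), the cohesin loader gene Nipbl (3463 bp), the cohesin release factor gene Wapl (1579 bp), Smchd1 (1627 bp), which silences clustered genes, and the DNA methyltransferase gene Dnmt3b (1513 bp). All 10 partners had one as well, with a median of 1472.5 bp, including Adam10 (1723 bp), whose product is a protease that cleaves protocadherins, and the kinase genes Ptk2 (998 bp, at a start other than the outermost) and Ptk2b (947 bp), whose products bind their cytoplasmic part. The unclustered protocadherin genes had a median width of 1251 bp, from 326 bp at Pcdh1, a gene with 3 such sites, to 4573 bp at Pcdh7. These counts stand beside the 70.8% of all protein-coding genes and the 97.1% of CpG-rich protein-coding genes with a site. The CpG class of the regulators and partners was not determined, and no test of the lists was made.

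Genes of other families lie around and between the clusters. Of 18 protein-coding genes in the span or within 200 kb of it that are no members, 14 had a site, beside 70.8% of all protein-coding genes. In the upstream flank these were Tmco6, Ndufa2, Ik, Wdr55, Dnd1, Hars, Hars2 and Zmat2. Between beta and gamma, Taf7, a subunit gene of the general transcription factor TFIID, had a site of 986 bp, while its neighbour Slc25a2, a mitochondrial carrier gene, was 4994 bp from the nearest site. Downstream, Diaph1, Hdac3, Rell2, Fchsd1 and Arap3 had one. The other 3 without a site, Gm42416, Gm37013 and Gm37388, are models that start within the alpha cluster and end at the gamma constant exons.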

How the data were processed

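The authors, according to their methods, used Trim Galore for trimming, BWA for alignment to mm10, SAMtools to filter unusable reads after ENCODE recommendations, Picard for the merging of replicates and MACS for narrow peaks, with modified nf-core code. Thresholds, the settings for reads with several placements, a shift for the Tn5 cut and the joining of sites across samples are not given in the sources used here, and each can change the number and width of sites. The deposited list holds chromosome, start and end of each site in bp and no count, score or signal, so depth is unknown and no test between groups or replicate error could be had.

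Starts in the list were taken as 0-based and raised by 1 for printing. Starts and exons came from all transcripts of the GENCODE vM21 annotation, and sequence from the RefSeq GRCm38.p6 assembly. GENCODE gives 2 genes the symbol Pcdha11, and 1 of them was named Pcdha10 after RefSeq. A site was counted with an overlap of at least 1 bp. For each gene the site nearest to any annotated start was used for widths, and of several at the same distance the one with the lowest coordinate. Words were counted on both strands over the numbered chromosomes, X and Y, without unplaced scaffolds or mitochondrial DNA. Every member with a site, the 3 closest and 3 farthest without, members next to the 1 kb limit and protein-coding neighbours were named by rule. The members and lists were chosen with earlier results of these data known. Python 3.11.15, NumPy 2.4.6, Numba 0.67.0 and Matplotlib 3.10.9 were used, and overlap, motif and word counts were tested on simulated data. Alternatives (window, start definition, RefSeq starts, site width, merging, motif mismatches, CpG limits, word length) are given at the end.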

Additional observations from a re-analysis of the deposited data

How the results depend on the processing

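With windows of 500 bp and 3 kb, outermost starts, coding transcripts, middles of sites or RefSeq starts, 27 members had a site in each case, with 6 alpha, 12 beta and 9 gamma genes. Counting sites of the median width or more left 11 members (2 alpha, 4 beta and 5 gamma), 11 members with a site on the first exon and 47 sites over the span with its flanks, by construction of the alternative. With flanks of 500 kb there were 139 sites. Of the 35 regulator, partner and unclustered protocadherin genes, 34 had a site with the window of 500 bp. CTCF matches were in 7 sites with 1 mismatch and in 1 site with the search limited to the middle 200 bp. The median share of repeated words was 3.9% for 36-base and 0.0% for 75-base words. Of 25 alternatives in all, these included, 17 were within 1.5 times the value reported. Among the 25 were 2 added after seeing the data: counting Pcdhgb8 gave 28 genes with a site, and leaving out windows with over 10% repeated words gave 24. No paired analysis was possible because values per library were not part of the list, and leaving out replicates could not be run for the same reason. The absence of a site says only that none was called in the pooled list, and its strength at the members could not be judged without depth.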

Other observations

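Antisense RNAs that start within variable exons are known to take part in the choice of alpha promoters in neuronal cells. Within the span, 10 genes are annotated as antisense, and 4 of them had a site within 1 kb of a start: Gm10545, Gm38097, Gm37118 and BC037039. The share over all antisense genes of the genome was not determined. For Gm10545 and BC037039 the site was that of a member, Pcdha12 and Pcdhgc3, and for Gm37118 it was the site of Pcdhga1, 816 bp away. Only Gm38097, between alpha constant exons 2 and 3, had a site of its own. The antisense genes Gm37751, Gm38225 and Gm37753, which start among Pcdha1 to Pcdha6, had none and were 25075, 7181 and 7660 bp from the nearest one.

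With 1 mismatch allowed, a CTCF match was found in the windows of 13 members, 10 of them alpha genes, against 20.6% of the windows of all protein-coding genes. Of these 13, 5 had a site at the start, and the match lay inside the site only at Pcdha12 and Pcdhgb1. The plus-strand matches of the alternate alpha genes lay between 456 and 581 bp after the start, whether or not the gene had a site. In the site downstream of the alpha cluster that borders the longest gap, a match with 1 mismatch was also found.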
